A study of Rattus norvegicus with 18 samples.

Results

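The comparison described here is the acute osmotic step from 300 to 600 mosmol/kg in primary cultured rat inner medullary collecting duct (IMCD) cells. It was chosen by the sample titles: the 3 arrays of cells moved to 600 mosmol/kg for 24 h were set against the 3 arrays of cells kept at 300 mosmol/kg, which makes 6 of the 18 arrays of the study. The study also held cells cultured at 600 mosmol/kg, cells of that culture moved to 900 mosmol/kg for 24 h, and both steps in the presence of 5 µM cyclosporin A, with 3 arrays in each group. All groups came from rat renal inner medulla, and neither group of the comparison received the drug. The labels give no strain, sex or age. They also leave out whether replicate arrays stand for different animals, different cultures or one preparation, so a p-value here covers the array-to-array spread only, which may be technical. The labels name no group that was moved at unchanged osmolality, so hypertonicity cannot be told apart from the move or from further time in culture.

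The inner medulla is the part of the kidney where salt and urea build up so that urine can be concentrated, and its cells live with an osmolality far above that of plasma. A cell placed in hypertonic medium first shrinks and takes up salts, and later replaces them with organic osmolytes such as sorbitol, myo-inositol, betaine and taurine. The transcription factor NFAT5, also called TonEBP, drives several of the genes for that exchange. Hypertonicity is also known to halt cell division for a time and to remodel the actin cytoskeleton.

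Each array measured 28328 features. The values are logarithms whose base the authors' files and labels do not give, and differences are therefore stated in log units. The median SD between the 3 arrays was 0.108 in the 300 culture and 0.117 after the step. Array profiles correlated at 0.985 to 0.987 within the groups and at 0.971 to 0.974 between them, and no array stood apart. The medians of the 6 arrays lay between 3.621 and 3.649. The quartiles of the feature means over the 18 arrays were 2.60 and 5.06, and a level under the lower quartile is not shown to stand above background. A feature was called when its adjusted p in limma, with Benjamini-Hochberg adjustment over all features, was below 0.05.

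After the step 4087 features were called, which is 14.4% of those measured. Of these 1801 were higher (6.36%) and 2286 were lower (8.07%). The response was lopsided in size. Among called features the median rise was 0.36 log units and the median fall was -0.51, while the median difference of all features was 0.02. A difference of at least 1 log unit was reached by 87 called features that rose and by 323 that fell. The large falls started from well-expressed genes, with a median level of 4.73 in the 300 culture, and 59 of the 323 ended under the lower quartile. The large rises started low, with a median level of 2.91 that became 4.36, and 31 of the 87 started under the lower quartile. Differences were under 0.5 log units for 2395 called features. Of the features with 1 gene symbol 19.0% were called, against 9.05% of the others, and 2 called features of those others rose by more than the leading named gene, Mmp13. All genes of the lists and families below have 1 symbol. Of the 15295 features with 1 symbol 1200 were higher and 1707 lower, so the shares of all features are a low yardstick for the lists.

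**Figure D1:**
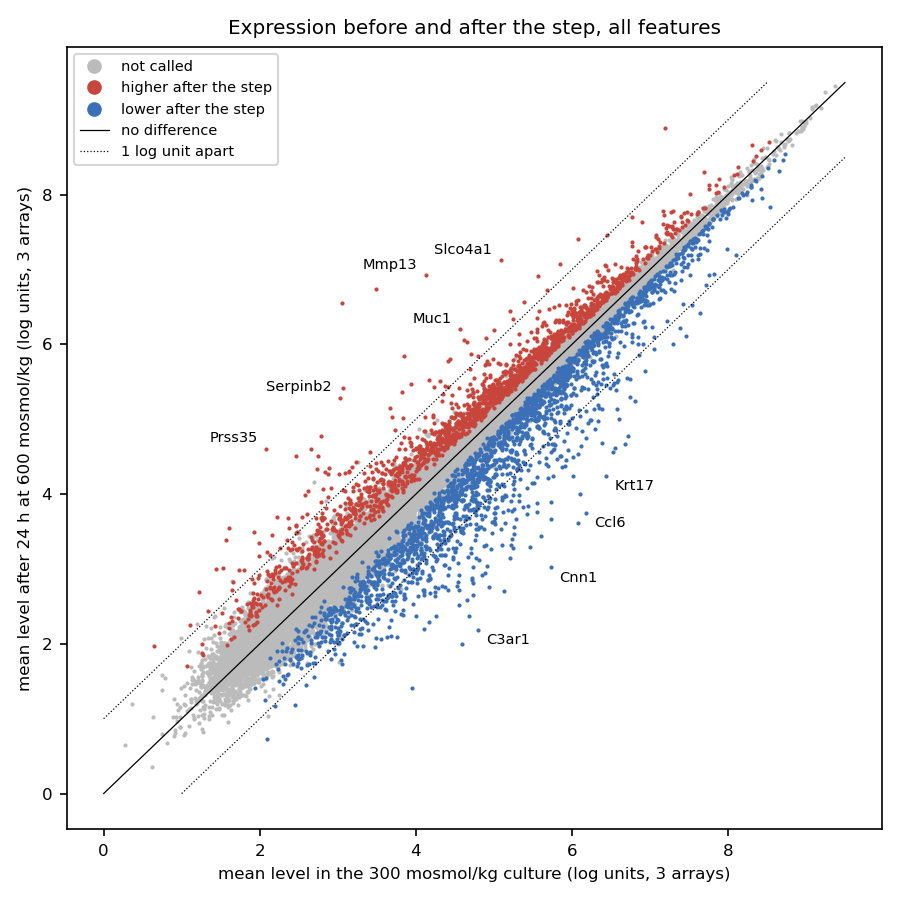
Each point is 1 of the 28328 features, with its mean level in log units over the 3 arrays of the 300 culture on the horizontal axis and over the 3 arrays after the step on the vertical axis; red points were called higher, blue points lower and grey points were not called. The dotted lines mark a difference of 1 log unit, past which 323 called features lie below the diagonal and 87 above it.

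Genes of secreted proteases, surface proteins and transporters were among those that rose most. Mmp13, a collagenase of the matrix metalloproteinase family, read 4.05, 4.19 and 4.15 on the arrays of the 300 culture and 6.84, 6.74 and 7.21 after the step, a rise of 2.80 ± 0.10 log units (SE; limma adjusted p = 5.58e-10). Slco4a1, an organic anion transporter that also carries thyroid hormone, read 5.32, 4.97 and 4.97 before and 7.18, 7.13 and 7.08 after, a rise of 2.04 ± 0.08. Muc1, the transmembrane mucin of the apical surface, went from 4.64, 4.50 and 4.56 to 6.31, 6.18 and 6.14, which is 1.64 ± 0.06. In each of these genes the arrays of the 2 groups lie far apart and the spread within a group is small.

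Prss35, a secreted protein related to serine proteases, read 1.62, 2.42 and 2.19 in the 300 culture and 4.69, 4.53 and 4.62 after the step (2.53 ± 0.17). Its starting level is under the lower quartile, so the size of that rise is less sure. Serpinb2, the plasminogen activator inhibitor type 2, read 3.09, 3.62 and 2.37 and then 5.28, 5.32 and 5.28 (2.26 ± 0.27), with scattered values before the step and close values after it. Klrk1, which encodes the activating receptor NKG2D of natural killer and T cells, rose by 2.05 ± 0.15 from 2.25, 2.61 and 2.54, although the general leukocyte markers described below fell. Tnfsf15, a cytokine of the TNF superfamily also called TL1A, rose by 1.60 ± 0.11 from a mean of 2.74 to 4.33. Fxyd2, the gamma subunit of the Na,K-ATPase, went from 4.08, 3.83 and 3.90 to 5.48, 5.57 and 5.39 (1.54 ± 0.09). The other leading rises were Akr1b1 (aldose reductase), Ptgs2 (cyclooxygenase 2), Slc45a3 (a solute carrier also called prostein), Tmem72 (a transmembrane protein), Capn13 (a calpain protease), Krt23 (a type I keratin) and Mmp3 (stromelysin), at 1.49 to 2.35 log units. Tmem72 is the least sure of them, since it read 0.71, 1.63 and 2.35 in the 300 culture and its call was lost in a plain 2-sample test with an adjusted p of 0.12. Akr1b1 was measured by 2 features, and the brighter one rose by 1.70 ± 0.06 from 7.19 ± 0.15 to 8.89 ± 0.01 (SD, n = 3). Klrk1, Slc45a3, Krt23 and Tmem72 started from means of 2.47, 1.61, 1.92 and 1.57, under the lower quartile. The size of their rises is therefore less sure.

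The genes that fell most are known from contractile cells, macrophages and basal epithelium. Cnn1, the actin-binding protein calponin 1 of contractile cells, read 5.70, 5.76 and 5.74 in the 300 culture and 3.08, 3.22 and 2.77 after the step, a fall of -2.71 ± 0.15. C1qa, a chain of the complement protein C1q that macrophages make, fell from 6.02, 6.05 and 6.17 to 3.57, 3.52 and 3.74 (-2.47 ± 0.15). Ccl6, a chemokine of myeloid cells in rodents, fell from 6.22, 6.19 and 6.14 to 4.11, 3.63 and 3.52 (-2.43 ± 0.15). The values before the step agree closely for each of these genes and no array after the step comes near them.

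Krt17, a keratin of basal and stressed epithelium, fell from 6.34, 6.54 and 6.44 to 4.16, 4.56 and 4.02 (-2.20 ± 0.26). Pi15, a secreted peptidase inhibitor, fell by 2.16 ± 0.14 log units, from 5.39, 5.66 and 5.75 to 3.21, 3.48 and 3.63. Arg1, the arginase of the urea cycle and of a class of macrophages, fell from 4.98, 4.95 and 4.89 to 2.48, 2.63 and 3.17 (-2.18 ± 0.14). Of the 9 further leading falls, all are known from leukocytes: C3ar1 and Cmklr1 (receptors for C3a and chemerin), Csf2rb (the shared receptor chain for GM-CSF), Fcgr2b (an inhibitory IgG receptor), Tyrobp (a signalling adaptor), Cd163 (the haemoglobin scavenger receptor), Rac2 (a GTPase of blood cells), Slamf9 and RT1-DMb (an MHC class II loading factor). They fell by 2.06 to 2.61 log units. C3ar1, Slamf9 and Tyrobp ended at means of 2.19, 2.37 and 2.59, under the lower quartile. The size of these 3 falls is therefore less sure.

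**Figure D2:**
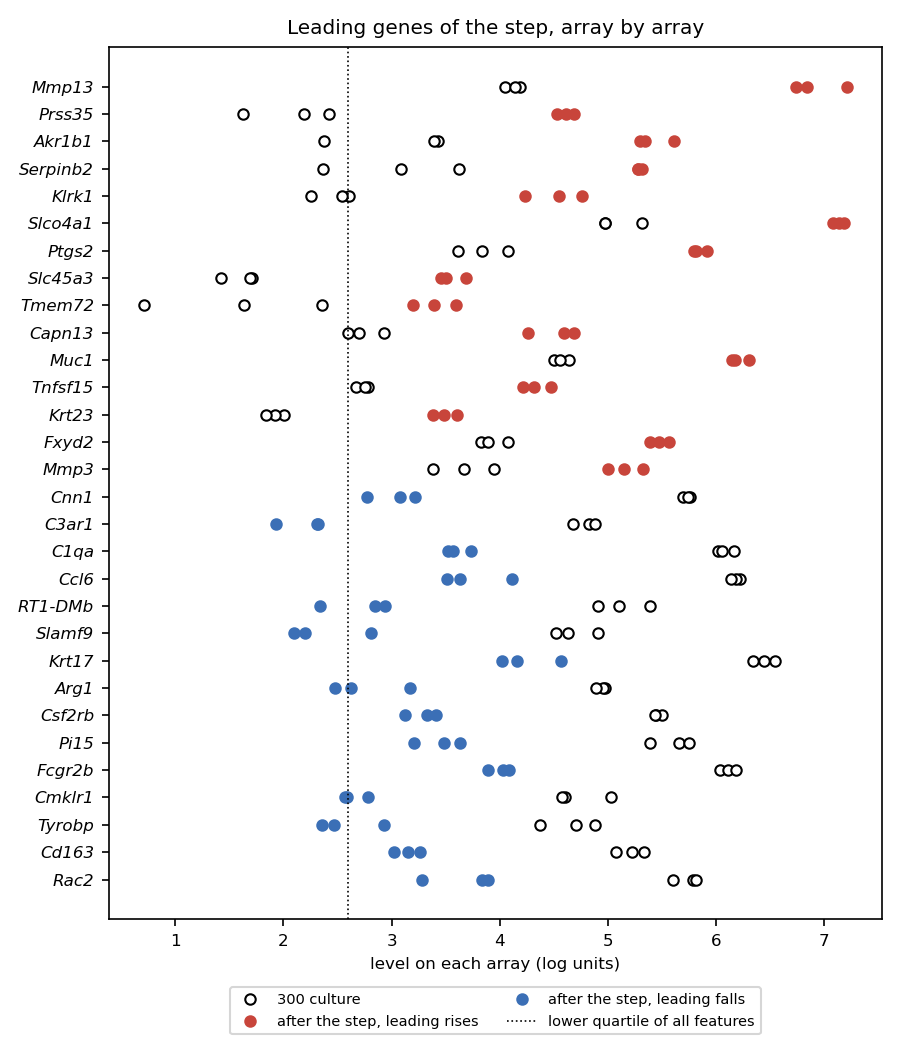
Each row is 1 of the 15 leading rises (top) and 15 leading falls (bottom), and each circle is the level on 1 array in log units: open for the 3 arrays of the 300 culture, red or blue for the 3 arrays after the step. The groups do not overlap in any row, which the choice of these genes required, and the open circles of Tmem72 are spread from 0.71 to 2.35.

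Markers of the labelled cell type were weak in the 300 culture. Of 14 principal cell markers, 3 stood above the median level of all features and 6 under the lower quartile. Aqp2, the vasopressin-regulated water channel that defines principal cells, read 1.62, 1.72 and 1.49 before the step and 2.50, 2.00 and 2.35 after it, a rise of 0.67 ± 0.14 that ends under the lower quartile. In the culture kept at 600 mosmol/kg its mean was 6.5 ± 0.30 (SD, n = 3). Slc14a2, the vasopressin-regulated urea transporter, rose by 1.18 ± 0.11 from a mean of 1.98, under the lower quartile, to 3.17. Its mean in the 600 culture was 5.77. Gata3, a transcription factor of the collecting duct, read 6.26 ± 0.04 and fell by 0.22 ± 0.05, and the other 11 principal cell markers were not called. The epithelial cell adhesion gene Epcam, at 7.96 to 8.0 on all 6 arrays, showed a strong epithelial signal.

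Markers of other cells were present beside it. The mean level over 18 macrophage and leukocyte markers was 5.71 to 5.80 on the arrays of the 300 culture and 4.35 to 4.46 after the step. Over 15 fibroblast and interstitium markers it was 5.09 to 5.12 and then 4.58 to 4.67, and over 12 endothelium markers 5.10 to 5.14 and then 4.72 to 4.80. The 14 principal cell markers averaged 2.97 to 3.07 before the step and 3.08 to 3.12 after it. Proximal tubule markers averaged 2.11 to 2.23 and urothelium markers 2.22 to 2.40 over all 6 arrays, and none of the 13 and 6 members was called. Of 13 intercalated cell markers Car2 (carbonic anhydrase II) rose by 0.52 ± 0.06, while the ammonia channel Rhbg and the proton pump subunit Atp6v1c2 fell, the latter by 0.29 ± 0.09 and in 1 of the 6 fits that left out 1 array. Of 10 loop of Henle markers 4 rose and 0 fell. Aqp1, the water channel of thin descending limbs and proximal tubules, led them with 4.91, 4.88 and 4.92 before and 6.20, 6.16 and 5.90 after (1.19 ± 0.08), whereas the defining thick limb protein Umod read 2.50 to 2.88 on the 6 arrays and was not called. Cldn16 rose by 0.34 ± 0.08. Slc12a1 and Bsnd were lost without replicate 1 or 2 of the 300 culture, which left a count of 2.

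**Figure D3:**
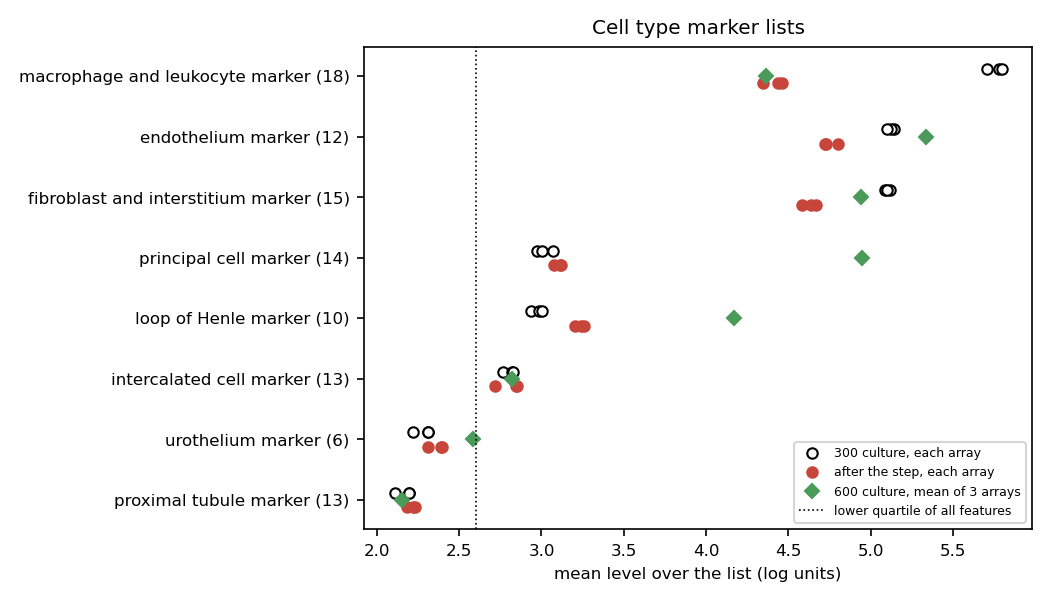
Mean level in log units over each list of cell type markers, with the number of measured markers in brackets: open circles are the 3 arrays of the 300 culture, red circles the 3 arrays after the step and green diamonds the mean of the 600 culture. Leukocyte markers fell from 5.71 to 5.80 down to 4.35 to 4.46, while principal cell markers stayed near 3 and stood near 5 in the 600 culture.

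The leukocyte signal fell broadly. Of the 18 macrophage and leukocyte markers 16 fell and 0 rose, with a median difference of -1.38 log units, beside the 8.07% of all features that fell. Mrc1, the mannose receptor of macrophages, read 6.45, 6.56 and 6.57 and then 4.64, 4.51 and 4.56 (-1.96 ± 0.08). The lysosomal protein Cd68 fell by 1.61 ± 0.13 and the adhesion chain Itgam by 1.19 ± 0.10. Lysozyme, Lyz2, fell by 0.83 ± 0.10 but still read 6.93 ± 0.09 after the step. The members not called were Ptprc, the surface phosphatase CD45 of all leukocytes (-0.10 ± 0.10, adjusted p = 0.572), and the endotoxin receptor Cd14 (-0.18 ± 0.06, adjusted p = 0.0558). Fewer cells of a type and less RNA per cell cannot be told apart in these bulk samples.

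Of 10 genes of MHC class II presentation 7 fell and 0 rose (median -1.06). RT1-Da, a class II alpha chain, read 5.67, 5.73 and 5.80 before and 4.70, 4.62 and 4.38 after (-1.17 ± 0.13), the invariant chain Cd74 fell by 0.61 ± 0.08, and cathepsin S, Ctss, by 1.20 ± 0.10. Of 11 complement genes 5 fell, 1 rose and 5 were not called. The central component C3, one of the brightest members, read 8.17, 8.13 and 8.08 and then 8.17, 8.12 and 8.13 (adjusted p = 0.91). The C5a receptor C5ar1 fell from 5.70, 5.79 and 5.71 to 3.88, 3.99 and 3.83 (-1.83 ± 0.06), and the serine proteases C1r and C1s changed by -0.70 ± 0.07 and -1.06 ± 0.22. The riser was Cd46, a membrane regulator that protects cells from complement, which went from 3.79, 3.95 and 3.86 to 4.53, 4.47 and 4.81 (0.73 ± 0.10). The leukocyte marker means given above fell on the same arrays, and their part in these falls was not tested.

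Of 19 contractile and actin-binding genes 12 fell, 0 rose and 7 were not called (median -0.53). Myh11, the smooth muscle myosin heavy chain, read 5.20, 5.25 and 5.33 and then 3.57, 3.46 and 3.39 (-1.79 ± 0.12). Actg2, the enteric smooth muscle actin, fell by 1.79 ± 0.12, the intermediate filament gene Des by 1.43 ± 0.11 and the tropomyosin Tpm2 by 1.34 ± 0.09. Acta2, the alpha smooth muscle actin, was among the brightest genes at 8.54, 8.55 and 8.54 and fell to 7.81, 7.87 and 7.83, a smaller but tight difference of -0.71 ± 0.04. Vinculin, Vcl, fell by 0.26 ± 0.05. Among the members not called were the tropomyosin Tpm1 (0.06 ± 0.06), caldesmon Cald1 (0.01 ± 0.05), Smtn (0.06 ± 0.12) and filamin A, Flna (-0.07 ± 0.06). The fibroblast marker means given above fell on the same arrays, and their part in these falls was not tested.

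Matrix and stromal genes fell as well. Of 15 fibroblast and interstitium markers 9 fell and 1 rose, with 2 rises without replicate 3 of the step. Postn, the matricellular protein periostin, went from 6.59, 6.57 and 6.59 to 5.23, 5.05 and 5.12 (-1.45 ± 0.06), and Pdgfrb, the receptor that marks pericytes and fibroblasts, fell by 0.99 ± 0.06. Among 25 collagen chains 9 fell and 2 rose. Col8a1 fell by 1.84 ± 0.13 and the fibrillar chain Col1a1 by 1.01 ± 0.07. The risers were Col4a3 (2.36, 2.22 and 1.71, then 3.28, 3.21 and 3.19) and Col4a4 (3.20, 3.34 and 3.03, then 4.05, 3.98 and 4.11), the chains that join in a specialised basement membrane network of the kidney. They rose by 1.13 ± 0.14 and 0.86 ± 0.08. Col4a3 started under the lower quartile, at a mean of 2.10.

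Of 24 integrin subunits 10 fell and 1 rose. Itga11, a collagen receptor of fibroblasts, fell by 1.87 ± 0.14, while Itga1, a collagen receptor of wider expression, rose by 0.38 ± 0.06. Of 12 endothelium markers 7 fell and 1 rose: the receptor kinases Tie1 and Kdr fell by 1.39 ± 0.12 and 0.71 ± 0.07, and the sialomucin Emcn rose by 0.37 ± 0.06. In the list of matricellular genes and targets of the mechanosensitive regulator YAP, 4 of 13 fell and 1 rose, with a median of -0.05. Ankrd1, a classical YAP target, fell from 7.95, 8.03 and 7.98 to 7.28, 7.25 and 7.29, while Ccn2, another, read 7.63, 7.68 and 7.63 and then 7.56, 7.60 and 7.50 and was not called. Ccn1 lost its call in each of the 6 fits that left out 1 array. Both Ccn1 and Axl were lost without replicate 3 of the 300 culture or replicate 1 of the step, which left a count of 2.

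The proteases that act on matrix were split. Of 22 genes of matrix proteases and the plasminogen system 6 rose and 9 fell, and in the whole family of 21 matrix metalloproteinases 3 rose and 7 fell. Beside the rises of Mmp13, Mmp3 and Serpinb2, Timp3, a tissue inhibitor bound to the matrix, rose from 5.96, 5.78 and 5.76 to 6.57, 6.55 and 6.45 (0.69 ± 0.07). Mmp7, matrilysin, is an epithelial protease and moved the other way, from 5.22, 5.00 and 5.07 to 3.53, 3.25 and 3.18 (-1.78 ± 0.11). Mmp14, the membrane-bound activator of other proteases, fell by 0.43 ± 0.06, and the inhibitors Timp1 and Timp2 fell by 0.43 ± 0.04 and 0.62 ± 0.10. Among 36 serpins 4 rose (11.1%) and 8 fell (22.2%), beside 6.36% and 8.07% of all features. The falls numbered 5 without replicate 3 of the 300 culture or replicate 1 of the step. Serpina3n rose by 1.02 ± 0.19, and Serpinf1, the antiangiogenic factor PEDF, fell by 1.05 ± 0.08.

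Sequences before the start sites of Mmp13 and Serpinb2 are shown because both genes are leading rises of the matrix protease and plasminogen list and both hold the AP-1 motif TGANTCA, given in capitals. The sequences come from the RefSeq promoter table of build GRCr8 and run 5′ to 3′ up to the base before the start. That of Mmp13 is chr8:12782709-12782828 on the plus strand with the motif at 66 to 60 bases before the start, and that of Serpinb2 is chr13:24055822-24056020 on the plus strand with the motif at 189 to 183 bases before it.
Mmp13: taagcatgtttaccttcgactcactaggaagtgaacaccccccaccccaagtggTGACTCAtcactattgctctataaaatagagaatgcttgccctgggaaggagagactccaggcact
Serpinb2: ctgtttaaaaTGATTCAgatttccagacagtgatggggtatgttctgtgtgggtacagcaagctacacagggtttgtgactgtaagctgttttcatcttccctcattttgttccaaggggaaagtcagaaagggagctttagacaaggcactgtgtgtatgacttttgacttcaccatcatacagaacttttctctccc
AP-1 is the family of Fos and Jun dimers that bind this motif, which reads the same on both strands. Searched over 250 bases before to 50 bases after the start, it was present in 6.23% of 11945 promoters of measured genes, in 7 of 47 genes that rose by at least 1 log unit, and in 7 of the 17 matrix protease and plasminogen genes with a promoter. The AP-1 motif was also present in 16 of the 193 genes that fell by at least 1. Among leading genes with a promoter, 4 of 12 rises and 2 of 7 falls held it. The motif of NFAT5, searched by its core TGGAAA on both strands, was present in 19.5% of all promoters, in 11 of the same 47 genes, and in 46 of the 193 genes that fell by at least 1. Both Mmp13 and Serpinb2 hold that core in the searched window, and in Serpinb2 it stands in the printed stretch in lower case, just after the AP-1 motif. Mmp3 of the same list also holds both motifs and Klrk1 holds that of AP-1, and their sequences are not shown. These matches describe the sequence alone.

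Genes of mitosis fell almost as a block. Of 28 measured mitosis and spindle genes 24 fell and 0 rose, with a median difference of -0.78. Cdc20, the activator of the anaphase-promoting complex, read 4.49, 4.39 and 4.35 in the 300 culture and 3.07, 2.96 and 2.71 after the step (-1.50 ± 0.16). Ccnb2, cyclin B2, fell from 4.99, 5.02 and 4.98 to 3.74, 3.42 and 3.73 (-1.37 ± 0.10), and Ccnb1, cyclin B1, from 5.34, 5.32 and 5.31 to 3.79, 4.04 and 3.88. The mitotic kinases Plk1, Ttk, Bub1 and Aurkb fell by 1.41 ± 0.20, 1.26 ± 0.09, 0.93 ± 0.11 and 0.85 ± 0.09. The groups do not overlap in these genes, which holds for 4051 of the 4087 called features. The members not called were Ube2c, Kif23, Cdca8 and Mad2l1, at -0.47 ± 0.26 to -0.15 ± 0.11. Of 29 kinesins 10 fell and 3 rose. The rises numbered 1 without replicate 1 or 3 of either group, and Kif1c was called in 0 of the 6 fits that left out 1 array. The chromosome motor Kif4a fell by 1.44 ± 0.15, and Kif13b, a motor of vesicle transport, rose by 0.38 ± 0.06.

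DNA replication genes were affected less evenly. Of 35 genes of DNA replication and nucleotide supply 14 fell and 1 rose, with a median of -0.17. The count of falls was 7 without replicate 1 of the 300 culture and 7 without replicate 2 of the step. Rrm2, the regulated subunit of ribonucleotide reductase, fell from 5.92, 5.88 and 5.99 to 4.60, 4.37 and 4.41 (-1.47 ± 0.16), and the origin licensing factors Cdc6 and Mcm5 each fell by 1.01 ± 0.15. Mcm7, a subunit of the same helicase as Mcm5, read 5.04, 4.96 and 4.80 and then 5.01, 5.04 and 4.92 and was not called (adjusted p = 0.732). Pola2, a subunit of the priming polymerase, was the riser at 0.40 ± 0.09. The difference between both lists was not tested.

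**Figure D4:**
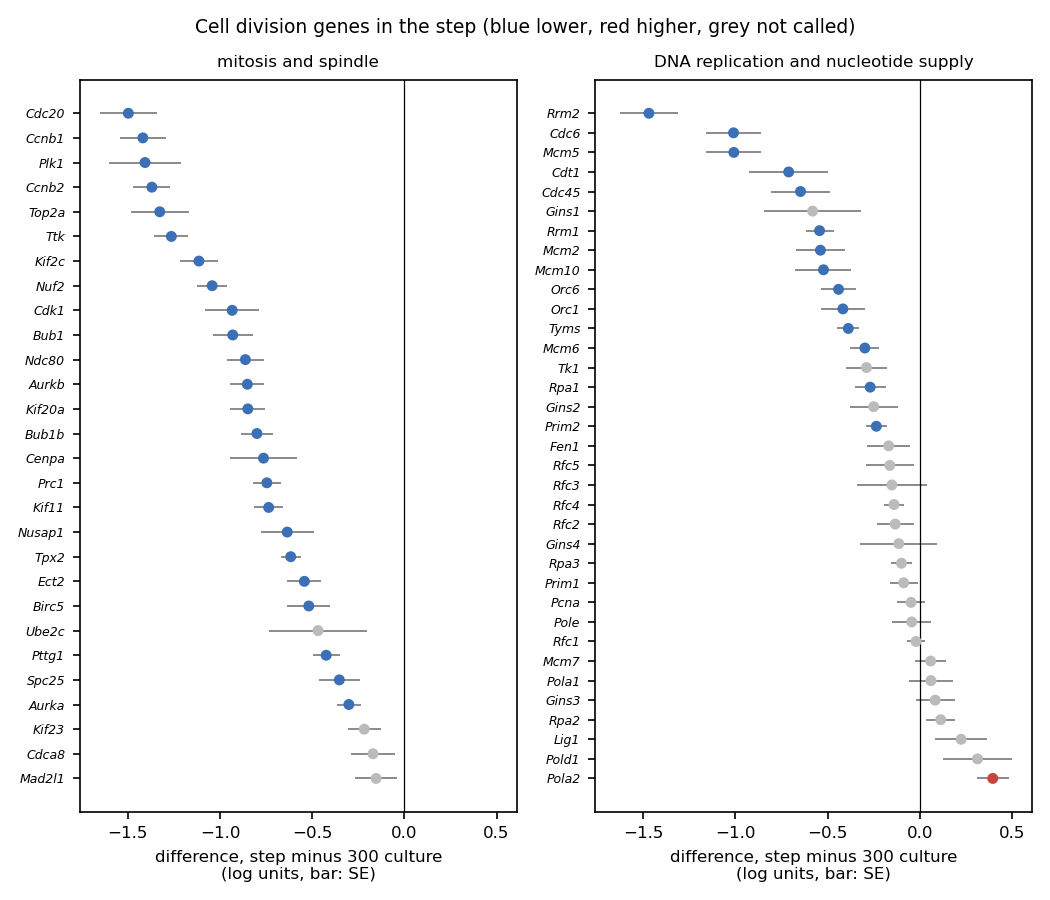
Difference between the step and the 300 culture in log units, with its SE as a bar, for the 28 measured mitosis and spindle genes (left) and the 35 measured DNA replication and nucleotide supply genes (right); blue points fell, red rose and grey were not called. On the left 24 points are blue, from Cdc20 to Aurka, and on the right 14 are blue, 1 is red and 20 are grey, the last from Gins1 at -0.58 to Pold1 at 0.31.

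The promoters of Cdc20 and Ccnb2 are shown because they carry the arrangement known from genes expressed in the G2 and M phases: CCAAT boxes (CCAAT, bound by NF-Y) and a cell cycle homology region (CHR, TTTGAA, bound by the DREAM and MuvB complexes). Both motifs are in capitals. For Cdc20 the sequence is chr5:137255800-137255919 on the minus strand of GRCr8, with CCAAT starting 86 and 41 bases and the CHR 51 bases before the start. For Ccnb2 it is chr8:79981659-79981882 on the minus strand, with CCAAT starting 134, 101 and 68 bases and the CHR 214 and 43 bases before the start.
Cdc20: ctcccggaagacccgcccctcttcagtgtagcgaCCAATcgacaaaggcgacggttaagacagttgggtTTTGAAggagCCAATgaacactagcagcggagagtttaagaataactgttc
Ccnb2: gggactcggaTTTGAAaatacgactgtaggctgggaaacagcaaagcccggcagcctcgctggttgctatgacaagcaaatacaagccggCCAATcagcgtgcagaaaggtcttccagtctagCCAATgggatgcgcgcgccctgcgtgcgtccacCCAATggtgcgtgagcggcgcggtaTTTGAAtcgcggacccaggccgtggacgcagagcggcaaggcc
Over the window of 250 bases before to 50 after the start, searched on both strands, both motifs together were present in 15 of 25 mitosis promoters and in 6.30% of all promoters. A CHR was found in 19 of the 25 and in 2 of 30 promoters of the DNA replication list, beside 15.1% of all promoters. The E2F motif (TTTCGCGC or TTTGGCGC) showed the opposite distribution, with 1 of 25 mitosis and 11 of 30 replication promoters beside 1.16% of all. Of the 193 genes that fell by at least 1 log unit 33 held a CHR (17.1%) and 79 a CCAAT box (40.9%). These shares are near the 15.1% and 38.3% of all promoters. Both motifs together were in 20 of the 193 (10.4%). A CHR was present in 16 of 22 promoters of mitosis genes that fell, beside 19 of the 25 in the list. A match is no evidence that a factor was bound.

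The D-type cyclins, which couple growth signals to the cell cycle, also fell. Ccnd2 went from 5.66, 5.81 and 5.83 to 4.65, 4.62 and 4.55 (-1.16 ± 0.09), and Ccnd1 fell by 0.56 ± 0.06 and Ccnd3 by 0.33 ± 0.06. They belong to a list of 21 cell cycle brakes, cyclins and p53 targets in which 8 fell and 3 rose. Cdkn1a, the p53-induced inhibitor p21, stayed at 7.01 to 7.11 on all 6 arrays (0.02 ± 0.06). The rises of Cdkn1b, Cdkn1c and Sesn1 were small, 0.18 to 0.25, and 0 of the 3 held in all 6 fits that left out 1 array. All were lost without replicate 3 of the 300 culture, and 1 was left without replicate 1 of the step.

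Cytokine genes fell more often than they rose. Of 29 cytokines and chemokines 15 fell and 7 rose (median -0.27), and of 65 interleukins and interleukin receptors 23 fell and 1 rose. Il6 read 4.97, 5.04 and 5.06 before the step and 4.06, 4.04 and 4.12 after it (-0.95 ± 0.07), Il1b fell from 5.90, 6.07 and 6.05 to 5.08, 4.94 and 5.02 (-0.99 ± 0.11), and Il18, which epithelium and macrophages make, fell by 1.61 ± 0.11. Il34, a second ligand of the macrophage growth factor receptor, fell by 1.38 ± 0.11. The interleukin that rose was Il15, a growth factor of natural killer and T cells, at 0.67 ± 0.09.

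Tnf, the founding member of the TNF superfamily, moved against the interleukins, from 5.45, 5.72 and 5.67 to 5.98, 6.01 and 6.0 (0.38 ± 0.08). The chemokines Ccl20, Cxcl10 and Cxcl1 rose by 0.58 ± 0.08, 0.52 ± 0.11 and 0.31 ± 0.07, whereas Ccl4, Ccl3 and Cxcl12 fell by 1.54 ± 0.18, 0.81 ± 0.08 and 0.65 ± 0.09. Over 33 chemokines 4 rose (12.1%) and 7 fell (21.2%), beside 6.36% and 8.07% of all features. Of 22 genes of the TNF superfamily and its receptors 3 rose and 5 fell, with Tnfrsf11b, the decoy receptor osteoprotegerin, falling by 1.20 ± 0.07. Among 15 S100 proteins 4 rose and 1 fell, with 2 falls without replicate 3 of the 300 culture or replicate 1 of the step. The calcium binder S100a5 rose by 0.76 ± 0.08. S100g, another, rose by 0.67 ± 0.09, with its means in both groups (1.88 and 2.55) under the lower quartile. S100a8, a myeloid alarmin, fell by 1.87 ± 0.22. Macrophages are a known source of several of these genes, and the leukocyte marker means fell on the same arrays. Their part in these differences was not tested.

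Of 11 EGF family ligands and receptors 5 rose and 2 fell, and the count of rises was 3 without replicate 1 of the 300 culture or replicate 2 of the step. The ligand Ereg, epiregulin, rose from 3.38, 3.30 and 3.14 to 4.12, 4.17 and 3.87 (0.78 ± 0.13), the receptors Erbb3 and Erbb2 rose by 0.51 ± 0.10 and 0.33 ± 0.06, and the ligand Nrg1 fell by 0.69 ± 0.11. Of 22 fibroblast growth factors 3 rose (13.6%, beside 6.36% of all features) and 0 fell, led by Fgf17 at 0.44 ± 0.08. In the list of AP-1 and early response genes 3 of 21 rose (14.3%) and 4 fell (19.0%), beside 6.36% and 8.07% of all features. Klf2, a transcription factor best known from endothelium, fell by 1.15 ± 0.17 to a level under the lower quartile, while Fos (-0.18 ± 0.21) and Jun (-0.10 ± 0.05) were not called. Of 17 MAP kinase phosphatases and sprouty genes 1 rose (5.88%) and 3 fell (17.6%). The riser, Dusp1, went from 6.18, 6.34 and 6.23 to 6.72, 6.78 and 6.65 (0.47 ± 0.07). In the family of 22 dual-specificity phosphatases 2 rose (9.09%) and 3 fell (13.6%), beside 6.36% and 8.07% of all features. There was 1 rise without replicate 1 or 3 of the 300 culture or replicate 1 of the step.

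In the Notch pathway, by which neighbouring cells signal to each other, 8 of 15 genes fell and 1 rose (median -0.42), and 5 fell without replicate 2 of the step. The targets Heyl (4.33, 4.28 and 4.45, then 2.95, 3.06 and 3.15) and Nrarp fell by 1.30 ± 0.17 and 1.08 ± 0.13, and the receptor Notch3, which pericytes and smooth muscle express, fell by 1.14 ± 0.16. The ligand Jag2 rose from 3.18, 2.83 and 2.56 to 3.81, 3.61 and 3.38 (0.74 ± 0.13). The fibroblast and endothelium marker means fell on the same arrays, and their part in the Notch difference was not tested.

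Of 27 WNT pathway genes 9 fell (33.3%) and 2 rose (7.41%), beside 8.07% and 6.36% of all features. There was 1 rise without replicate 1 of either group. The secreted antagonist Dkk2 fell from 4.96, 4.85 and 4.73 to 3.01, 2.72 and 3.03 (-1.93 ± 0.11), the nuclear effector Lef1 fell by 0.80 ± 0.12 to a mean of 2.03, and Lgr4, a receptor that strengthens WNT signals, rose by 0.37 ± 0.05. Of 27 genes of the TGF-beta and BMP pathways 8 fell and 4 rose, the latter 2 without replicate 1 of the 300 culture or replicate 1 or 2 of the step. Inhba, the activin A chain, fell from 5.65, 5.67 and 5.74 to 4.46, 4.29 and 4.37 (-1.31 ± 0.07), and Tgfb3 fell by 1.12 ± 0.08. The ligand Bmp2 rose from 2.79, 2.37 and 2.67 to 3.89, 3.85 and 3.47 (1.13 ± 0.18), and Gdf15, a stress-induced cytokine of the same superfamily, rose by 0.91 ± 0.11. The BMP targets Id1 and Id3 fell by 0.75 ± 0.14 and 0.58 ± 0.12.

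Genes of epithelial identity showed no single direction. Cdh16, the kidney-specific cadherin, rose from 6.81, 6.75 and 6.74 to 7.68, 7.72 and 7.71 (0.93 ± 0.04), while Cdh1, E-cadherin, fell from 7.33, 7.29 and 7.37 to 6.84, 6.84 and 6.78 (-0.51 ± 0.05). Snai2, Snai1 and Zeb2, transcription factors that repress epithelial genes, fell by 0.93 ± 0.08, 0.89 ± 0.17 and 0.78 ± 0.10. In all, 8 of the 16 genes of that list fell and 2 rose, with 5 falls without replicate 1 of the 300 culture or replicate 2 of the step. Among 19 kidney epithelial transcription factors 4 rose (21.1%) and 2 fell (10.5%), beside 6.36% and 8.07% of all features. There was 1 fall without replicate 1 or 2 of the 300 culture or replicate 2 or 3 of the step. Pax2 went from 3.42, 3.46 and 2.92 to 3.89, 3.98 and 3.96 (0.68 ± 0.15), Pax8 rose by 0.45 ± 0.08 and Klf5 by 0.31 ± 0.04. Pax2 and Pax8 pattern the kidney tubule in development.

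Of 22 homeobox cluster genes, which set the position of cells along the body axis, 5 rose and 0 fell. The count was 3 without replicate 2 or 3 of the 300 culture or replicate 3 of the step. Hoxc9 led them, from 4.81, 4.93 and 4.92 to 5.40, 5.34 and 5.38 (0.49 ± 0.06). Of 22 tight junction genes 1 rose (4.55%) and 3 fell (13.6%), beside 6.36% and 8.07% of all features. Among 24 claudins, the proteins that set paracellular permeability, 1 rose (4.17%) and 3 fell (12.5%): Cldn9 by 0.98 ± 0.17, Cldn23 by 0.53 ± 0.07, and Cldn6 by 0.20 ± 0.05. Without replicate 3 of the 300 culture 2 claudins rose. Of 44 keratins 2 rose (4.55%) and 5 fell (11.4%), near the 6.36% and 8.07% of all features. In the 300 culture 28 of the 44 stood under the lower quartile. The falls numbered 3 without replicate 3 of either group. Krt14, the partner of basal keratins, fell by 1.31 ± 0.09 and Krt19, a simple epithelial keratin, rose by 0.24 ± 0.05.

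Of 315 solute carriers 35 rose (11.1%) and 44 fell (14.0%), beside 6.36% and 8.07% of all features. The rises numbered 23 without replicate 1 of the step. Slc4a11, an ion transporter of the bicarbonate transporter family, went from 3.15, 2.77 and 2.73 to 4.34, 4.30 and 4.40 (1.47 ± 0.12). Among genes with an Slc symbol it was second to Slc45a3 (1.94 ± 0.13), which started under the lower quartile, and the organic anion carrier Slco4a1, outside that symbol pattern, rose by more than both. The largest falls were Slc11a1, the metal transporter of phagosomes, from 5.53, 5.57 and 5.57 to 3.97, 3.95 and 3.72 (-1.68 ± 0.08), and Slc10a6, a carrier of sulphated steroids (-1.56 ± 0.13). Of 83 potassium channel subunits 5 rose and 7 fell, which is close to the 6.36% and 8.07% of all features. The rises numbered 3 without replicate 1 or 2 of the 300 culture or replicate 1 of the step. The inward rectifier Kcnj2 rose by 0.68 ± 0.09 and Kcna3, a channel of lymphocytes and macrophages, fell by 1.28 ± 0.13. Of 7 FXYD proteins, which regulate the Na,K-ATPase, Fxyd2 rose as described and Fxyd5 and Fxyd6 fell by 0.75 ± 0.07 and 0.44 ± 0.09. In the list of 7 organic osmolyte genes 5 rose and 1 fell. The faller was Sord, sorbitol dehydrogenase (-0.53 ± 0.13), whose call was lost without replicate 1 or 3 of the 300 culture or replicate 1 of the step. Slc5a3, the myo-inositol transporter, read 4.74, 4.66 and 4.68 and then 5.69, 5.67 and 5.65.

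Metabolic lists were mixed. Of 17 targets of the antioxidant regulator NRF2 6 rose and 1 fell, the fall being lost without replicate 1 of the 300 culture or replicate 1 or 3 of the step, with Nqo1, a quinone reductase, going from 5.04, 5.05 and 5.14 to 5.79, 5.78 and 5.66 (0.67 ± 0.06) and Gclm, which makes glutathione precursor, rising by 0.50 ± 0.05. Of 23 genes of glycolysis and the hypoxia response 7 fell and 3 rose: Slc16a3, the lactate exporter, fell from 6.39, 6.25 and 6.29 to 5.44, 5.63 and 5.32 (-0.84 ± 0.08), and hexokinase Hk1 rose by 0.28 ± 0.04. Of 16 genes of fatty acid oxidation 2 fell (12.5%) and 1 rose (6.25%), beside 8.07% and 6.36% of all features. The rise was lost without any 1 array other than replicate 2 of the 300 culture. Cd36, a fatty acid uptake receptor that macrophages and endothelium also carry, fell from 6.30, 6.36 and 6.37 to 5.03, 4.94 and 4.97 (-1.36 ± 0.06).

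Of 21 genes of lysosomes and autophagy 6 fell and 1 rose. The proteases Ctsz (5.91, 5.94 and 6.0, then 4.56, 4.61 and 4.61) and Ctsk fell by 1.35 ± 0.05 and 1.15 ± 0.08, while Tfeb, the transcription factor of lysosomal genes, rose by 0.30 ± 0.07. Macrophages also express Ctsz and Ctsk, the leukocyte marker means fell on the same arrays, and their part in these falls was not tested. Of 69 cytochrome P450 genes 1 rose (1.45%) and 6 fell (8.70%), under the 6.36% and near the 8.07% of all features. The rises numbered 3 without replicate 3 of the 300 culture and 2 without replicate 2 of the step. Cyp1a1, the classical target of the aryl hydrocarbon receptor, rose by 1.18 ± 0.16, and Cyp7b1, an oxysterol hydroxylase, fell by 1.19 ± 0.11.

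Of 76 ribosomal protein genes 1 rose and 2 fell, of 37 genes of NADH dehydrogenase subunits and assembly factors 1 rose and 2 fell, and of 47 proteasome subunits 3 rose and 3 fell, shares near or under the 6.36% and 8.07% of all features. Without replicate 3 of the 300 culture or replicate 2 of the step 1 proteasome subunit fell, and the single ribosomal rise was lost without replicate 3 of the 300 culture or replicate 1 of the step. The ribosomal falls numbered 1 without any 1 array other than replicate 3 of the step, and the NADH dehydrogenase rises numbered 0 without replicate 1 of the 300 culture and 2 without replicate 1 of the step. Psmb9, the interferon-induced proteasome subunit, fell by 0.36 ± 0.07. Of 27 aminoacyl-tRNA synthetases 4 rose and 7 fell, shares above those of all features, with 0 of the rises and 4 of the falls holding in all 6 fits that left out 1 array. Without replicate 1 of the step the rises numbered 0, without replicate 1 of the 300 culture 1, and without replicate 2 of either group 2, and the falls numbered 4 without replicate 3 of the 300 culture or replicate 2 of the step. Of 61 genes named as Rab GTPases, which steer vesicles, 8 rose and 8 fell (13.1% each, beside 6.36% and 8.07% of all features). The falls numbered 5 without replicate 2 or 3 of the 300 culture or replicate 1 or 2 of the step. The largest rise among the Rab genes was Rab3gap2, a regulator of a Rab and itself no GTPase, at 0.80 ± 0.05.

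Of 152 zinc finger protein genes 16 rose (10.5%) and 2 fell (1.32%), beside 6.36% and 8.07% of all features. Leaving out 1 array gave 8 to 11 rises: 8 without replicate 1 of the 300 culture, 9 without its replicate 3 or replicate 1 of the step, 10 without replicate 2 or 3 of the step, and 11 without replicate 2 of the 300 culture. Without replicate 3 of the 300 culture 4 fell. The falls with all arrays were Zfp36l2 and Zfp36, at -0.59 ± 0.12 and -0.30 ± 0.07. They encode RNA-binding proteins that promote the decay of cytokine transcripts.

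Of 15 circadian clock genes 3 rose (20.0%) and 1 fell (6.67%), beside 6.36% and 8.07% of all features. Nr1d1, the repressor REV-ERB alpha, rose from 2.76, 2.90 and 2.75 to 3.81, 3.83 and 3.6 (0.94 ± 0.12), Per1 rose by 0.31 ± 0.06, and Bhlhe41 fell by 0.78 ± 0.14. The labels give no clock time of harvest. Of 13 corticosteroid receptors and targets 2 rose and 2 fell (15.4% each), beside 6.36% and 8.07% of all features. There was 1 fall without replicate 3 of the 300 culture or replicate 1 or 2 of the step. Tsc22d3, the glucocorticoid-induced leucine zipper, rose from 5.19, 5.17 and 5.17 to 5.57, 5.48 and 5.45 (0.33 ± 0.06), and Fkbp5, another classical glucocorticoid target, fell from 4.86, 4.86 and 4.95 to 4.19, 4.34 and 4.14 (-0.66 ± 0.06). Sgk1, the kinase induced by aldosterone and by hypertonicity, was not called at 0.14 ± 0.05 (adjusted p = 0.0547).

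**Figure D5:**
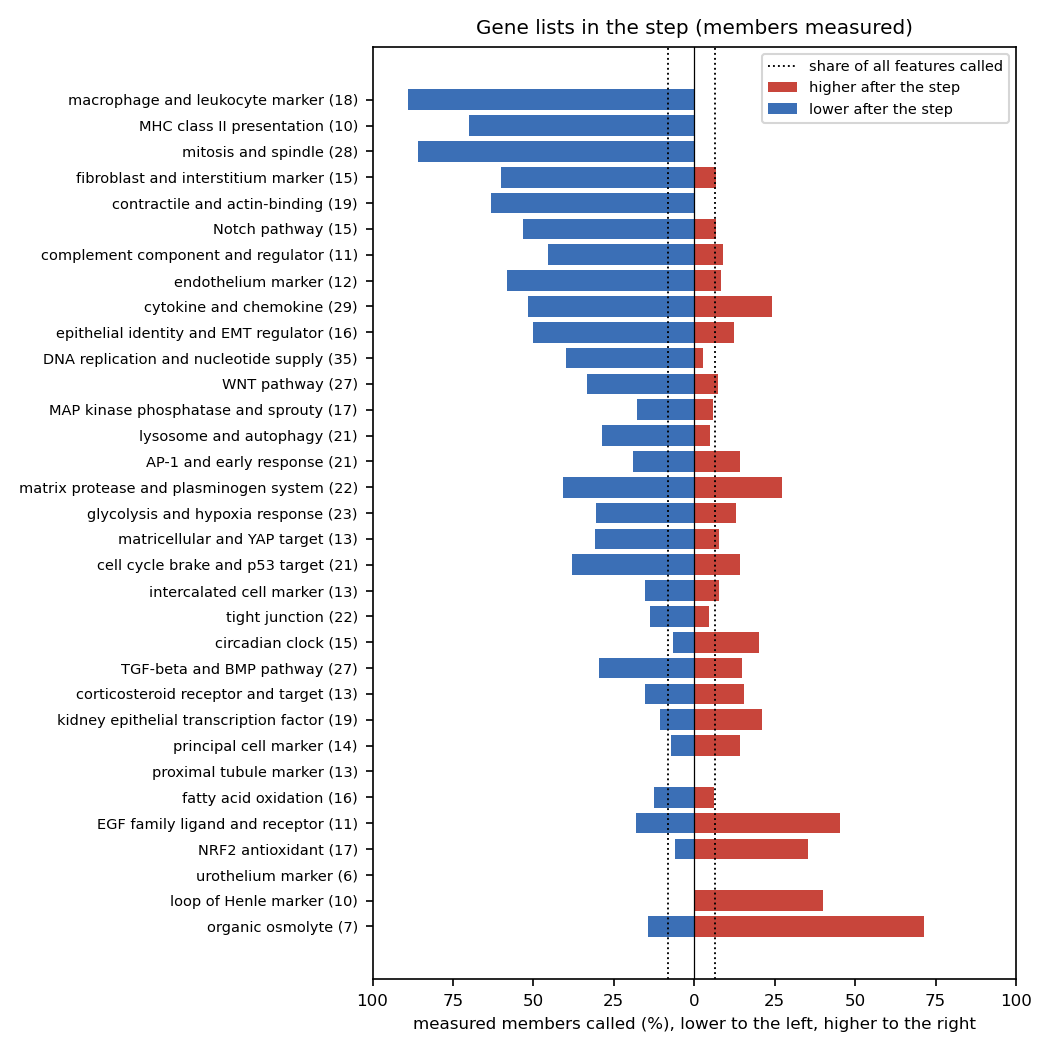
Share of the measured members of each gene list, in percent, that were lower (blue, to the left) or higher (red, to the right) after the step, ordered by the median difference of the list, with the number of members in brackets. Dotted lines mark the shares of all features, 8.07% lower and 6.36% higher. The macrophage and leukocyte, MHC class II and mitosis lists reach furthest to the left.

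The second osmotic step of the study, from the 600 culture to 900 mosmol/kg, uses other arrays, so the size of the response can be compared. A difference between the steps was called for 7.58% of all features. Of the 15 leading rises 8 rose more in the step from 300 than in the step from 600, and of the 15 leading falls 11 fell more. None of the 30 changed less, but the choice of genes by their size in the first step favours that direction. Mmp3 differed most among the rises, with 1.49 in the first step and -0.43, not called, in the second (difference 1.92 ± 0.21). Slco4a1 rose by 2.04 and 0.69. Ptgs2, Slc45a3, Tnfsf15 and Krt23 showed no called difference, at 2.00 and 1.77, 1.94 and 1.88, 1.60 and 1.44, and 1.57 and 1.42 log units. Among other members Myh11 fell by 1.79 and 1.61 in the first and second step, Actg2 by 1.79 and 1.48, and Des by 1.43 and 1.27, with no called difference. Other genes of the same list fell in the second step and were not called in the first: Cald1 by 0.71 (adjusted p of the difference 2.44e-05) and Tpm1 by 0.56 (0.000238). Ccn1 fell by 0.19 in the first step and 1.35 in the second (difference 1.16 ± 0.08), and Tgfb2, not called in the first, fell by 1.15 in the second (difference 1.11 ± 0.09). Ccnb2 fell more in the first step (by 1.37 against 0.71, adjusted p = 0.0102), whereas for Cdc20 (1.50 and 0.83 lower) and Ccnb1 the difference was not called. Il1b went opposite ways, by -0.99 in the first step and 0.39 in the second. The second step began at a mean of 2.52, under the lower quartile, so its change is less sure.

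The culture kept at 600 mosmol/kg reached the same osmolality by another route, and 16.4% of all features differed between it and the cells after the step. The leading genes were chosen by their values on the same step arrays. That choice favours levels above the 600 culture for the rises and below it for the falls. Of the leading rises 9 stood above the 600 culture after the step, 2 below it and 4 were not called. Slco4a1 (7.13 after the step and 7.12 in the 600 culture), Fxyd2 (5.48 and 5.58) and Prss35 (4.61 and 4.72) were not called as different, whereas Ptgs2 (5.84 and 3.30), Capn13 (4.51 and 2.34) and Serpinb2 (5.29 and 3.18) were far above it. Of the leading falls 3 stood above the 600 culture, 5 below it and 7 were not called. C1qa (3.61 and 3.63) and Pi15 (3.44 and 3.43) were not called as different, and Cnn1 (3.02 and 5.12) was well below it. Mitosis genes were at 4.04 for Cdc20 and 4.89 for Ccnb2 in the 600 culture, above the 2.91 and 3.63 after the step. The culture history of both groups differs in more than the osmolality after the step, and the parts cannot be told apart.

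Cyclosporin A, which blocks the phosphatase calcineurin, was present in 3 further arrays of the same step. Between the step with and without the drug 0.409% of all features differed. Among the 30 leading genes 1 was called, Mmp13, which was lower with the drug by a difference of -0.51 ± 0.10 (adjusted p = 0.0413). The other 29 were not called. Set against the 300 culture, the leading rises measured 1.26 to 2.43 log units with the drug and the leading falls -2.92 to -1.76. These values share the control arrays with the step described above and are given side by side only. The comparison with and without the drug reuses the step arrays by which genes are named here as risen or fallen. That choice favours drug differences against the direction of the step. Of the 562 genes in all lists 6 were higher and 6 lower with the drug than without it. Of genes that fell in the step, Pdgfrb, Ccnd2, Wnt5a, Inhba and Mmp9 were higher with the drug, by 0.58 ± 0.06, 0.49 ± 0.09, 0.42 ± 0.04, 0.38 ± 0.07 and 0.78 ± 0.11. Gata3, Il1a, Egfl7 and Cxcl11 also fell in the step and were lower still with the drug, with Gata3 at -0.47 ± 0.05 (adjusted p = 0.000625).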

How the data were processed

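RNA from cultured rat IMCD cells was measured on 18 Affymetrix whole-transcript arrays after biotin labelling, per the labels' protocols. The authors deposited log-scale expression values per feature. They were handled as natural log values, but neither the labels nor the deposited files give the base, the summarisation or the normalization. The highest value on the 6 arrays was 9.471. The highest value over all 18 arrays stands for an intensity of 13413.3 if the log is natural and 726.1 if it is log2. The base scales all differences alike and leaves p-values as they are. How far probes stand above background is not stated, and the number of arrays limits the precision.

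Group means of all 18 arrays were fitted with limma 3.58.1 in R 4.3.3, with moderated variances (12 residual degrees of freedom). P-values were adjusted by Benjamini-Hochberg for the 28328 features at a threshold of 0.05. Groups came from the sample titles. No filter, offset or further normalization was applied. The script was tested on simulated data. Symbols came from the platform's gene table (15295 features with 1 symbol, 322 with several, 12711 not named there), checked by Entrez identifier against the RefSeq table of GRCr8, where 15264 matched and 0 changed. The brightest feature on average stood for each of 14499 genes in 33 lists and 24 symbol families. Promoters came from the RefSeq table for 11945 of them.

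Named leading genes are the 15 largest rises and falls among called features with 1 symbol and no overlap between the groups, passing over placeholder, small RNA and receptor symbols of the nose. Any list member and the 2 largest changes each way in a family could also be named. The members, lists and promoters were chosen with earlier results of these data known. Same-numbered arrays showed no shared deviation from their group means, with correlations of 0.020, -0.009 and 0.0005. The labels do not say whether equal numbers mark a shared preparation, and these values cannot settle it. Alternatives were the 6 arrays alone, median centring, quantile normalization, a filter on low features, an intensity trend, a robust fit, a plain 2-sample test, a replicate block, each array left out, and all features of a gene.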

Additional observations from a re-analysis of the deposited data

Results flagged for a closer look

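The change of 19 of the 30 leading genes differed between the step from 300 to 600 and the step from 600 to 900 mosmol/kg in the test of the difference itself (limma, adjusted p below 0.05). The genes had been chosen by their size in the first step. Among the rises the first step exceeded the second by 1.92 log units in Mmp3, 1.72 in Serpinb2, 1.36 in Slco4a1, 1.29 in Capn13, 1.23 in Klrk1, 0.94 in Prss35, 0.78 in Mmp13 and 0.41 in Muc1. Among the falls the difference was -2.29 in C3ar1, -2.25 in Ccl6, -2.02 in Cd163, -2.00 in RT1-DMb, -1.61 in Pi15, -1.60 in Slamf9, -1.42 in Rac2, -1.40 in Arg1, -0.98 in Fcgr2b, -0.92 in Tyrobp and -0.75 in C1qa. Most of the falls are macrophage genes whose level in the 600 culture, the start of the second step, was already low: Cd163 averaged 5.21 in the 300 culture and 2.75 in the 600 culture, and Ccl6 6.18 and 2.48. The mean of the 18 leukocyte markers was 4.37 in the 600 culture and 3.35 after the second step. The part of these starting levels in the differences was not tested.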

How the results depend on the processing

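All 30 leading genes kept their direction under every alternative that gave a value, and all kept their call except Tmem72 in the plain 2-sample test. With the filter on low features 29 of the 30 had a value. With only the 6 arrays of the comparison 1142 features were called higher, and in the plain 2-sample test 2588 were called in all and 1007 higher, against 4087 and 1801. Without 1 array each the total was 3127 to 3451. The fit with a replicate block called 3962, and whether equal replicate numbers mark a shared preparation is not known. Median centring, quantile normalization, the filter, an intensity trend and a robust fit gave 3918, 4345, 4431, 4867 and 4000. Of 41 list counts of at least 5 calls, 17 moved by more than 1.5 times in the plain 2-sample test, 7 with the 6 arrays alone, 2 with the filter, 3 to 7 without 1 array, and 0 otherwise. With all features of each gene no list median moved by more than 0.016. Levels under the lower quartile limit how sure the size of a change is.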

Other observations

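A pair of secreted epithelial proteins, chosen after their values were seen, rose in the step but were far lower in the culture kept at 600 mosmol/kg than in the 300 culture. Olfm4, a glycoprotein of epithelial progenitor and injured cells, read 6.11, 6.0 and 6.11 in the 300 culture and 7.49, 7.37 and 7.35 after the step, a rise of 1.33 ± 0.12 (limma adjusted p = 3.38e-06). In the 600 culture it averaged 2.21 ± 0.29 (SD, n = 3). Clca4l, a member of the calcium-activated chloride channel regulator family, read 4.96, 4.46 and 4.42 and then 6.13, 6.06 and 6.01, a rise of 1.45 ± 0.14, and averaged 2.89 ± 0.11 in the 600 culture.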
